A study of Mus musculus with 24 samples.

Results

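Small nucleolar RNAs, the genes that host them and a few other nuclear noncoding RNAs were followed in mouse B16 melanoma tumours. Members were the genes whose symbol starts with Snora, Snord, Snhg, Scarna or Rnu, together with Gas5, Malat1, Neat1, Rmrp and Lncpint. A member had to have a probeset annotated to that gene alone, and its brightest probeset on average was used. This gave 68 genes of the 19938 measured: 20 Snora, 31 Snord, 3 Scarna and 5 Rnu genes, 6 host genes (Gas5, Snhg5, Snhg11, Snhg15, Snhg16 and Snhg17), and Malat1, Lncpint and Rmrp. Neat1 had 0 such probesets. The family was selected on its difference between day 7 and day 3 in these same arrays. Differences between days, and their comparison between arms, are therefore given as a description. Calls and adjusted p-values printed for them are not read as tests of the family.

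Small nucleolar RNAs (snoRNAs) guide chemical modification of other RNAs. Those with C and D boxes (Snord) direct methylation of ribose, and those with H and ACA boxes (Snora) direct the change of uridine to pseudouridine, mostly in ribosomal RNA; a few instead serve the cutting of the ribosomal RNA precursor. In mammals most are not transcribed on their own but are trimmed out of introns of host genes, many of which encode ribosomal proteins, while the hosts named Snhg and Gas5 encode no known large protein. Scarna RNAs do the same work in Cajal bodies on spliceosomal RNAs, Rnu genes encode spliceosomal and related small nuclear RNAs, Rmrp is the RNA of RNase MRP, and Malat1 is a long RNA of nuclear speckles.

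Mice aged 6 to 12 weeks carried subcutaneous tumours from 500000 injected B16 cells, a pigmented mouse melanoma line. The untreated mice received nothing further, and the labels state no irradiation for them. From 10 to 14 days after tumour injection, the Mock and IL-12TD mice were irradiated with 5 Gy over the whole body and given 100000 pmel-1 CD8+ T cells, which recognise a melanocyte antigen. These T cells were un-transduced in the Mock groups and transduced with interleukin 12 in the IL-12TD groups. Tumours were collected at day 3 or day 7, with 4 arrays in each of the 6 groups and 24 in all. For the Mock samples of day 7, 1 label speaks of day 3 while the rest speak of day 7, where they were placed. No processing batch is given, so a batch effect and the effect of day cannot be told apart. Whole tumours dispersed to single cells were measured, so fewer cells of a type and less RNA per cell cannot be told apart.

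The arrays resembled each other closely within groups, with correlations between replicates from 0.962 to 0.992 over all genes. Group means of the melanocyte gene Tyrp1 lay between 12.59 and 12.96 and those of Dct between 12.50 and 12.81, so the labelled tumour type showed its defining markers in all 6 groups. The interquartile range of an array's log2 values ran from 2.08 to 2.88 and its group mean from 2.22 to 2.76, which differs between groups although the values had been normalized by the authors. Levels below are log2 intensities, and a log2 difference of 1 is a doubling; the array cannot tell a mature snoRNA from the unspliced intron that holds it. Total RNA was made with a silica column kit, a kind made for longer RNA that holds short RNAs poorly. Levels are compared between groups for the same RNA only, since probe brightness differs between RNAs.

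Because most members are trimmed from a host transcript, the start of a host is of interest. Short pyrimidine stretches were looked for at the starts of long members. Of these genes only Gas5 holds another member by its coordinates (Snord47), so the starts of the other members' hosts were not examined. The windows below run from 40 bases before to 30 bases after the annotated start of 5 long members and were read from RefSeq promoters (build GRCm38.p6). Capitals mark the letters CTTT where they lie within 5 bases before to 25 bases after the start, on the gene's own strand. Gas5 is shown at the second of its annotated starts (chr1:161035126-161035195, plus strand), Snhg5 at chr9:88522868-88522937 (minus strand), Snhg15 at chr11:6528731-6528800 (minus strand) and Snhg16 at chr11:116671620-116671689 (plus strand). Malat1 (chr19:5802643-5802712, minus strand) is shown as a member without such letters in that stretch. These 5 were picked to show both cases: the hosts Snhg11 and Snhg17 and the first start of Gas5 held none either.
Gas5: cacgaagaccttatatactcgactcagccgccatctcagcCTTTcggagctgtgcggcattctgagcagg
Snhg5: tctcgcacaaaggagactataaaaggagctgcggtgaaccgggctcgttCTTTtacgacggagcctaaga
Snhg15: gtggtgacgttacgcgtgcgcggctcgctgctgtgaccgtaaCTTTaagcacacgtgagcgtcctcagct
Snhg16: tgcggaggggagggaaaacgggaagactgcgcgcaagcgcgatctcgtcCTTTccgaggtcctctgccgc
Malat1: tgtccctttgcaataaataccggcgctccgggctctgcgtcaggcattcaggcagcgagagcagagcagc

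Of the 10 starts of the 8 members with an entry among the RefSeq promoters, 4 held CTTT in the 30-base window, which 11.2% of all 32851 promoters did. Counted from the first transcribed base as 1, the letters began at base 1 in Gas5, 3 in Snhg15 and 10 in Snhg5 and Snhg16, so in 3 of these 4 hosts they were not at the start itself. On the other strand, AAAG lay in that window at 1 of the 10 starts of those members, the first start of Gas5, against 11.3% of all promoters. The E box CACGTG, which reads the same on both strands, lay in the 300 bases around the start of Snhg15 and Lncpint, against 7.15% of all promoters. These are matches of letters and do not show a bound factor. The sequences of the small RNAs themselves were not used here.

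At day 7 nearly the whole family stood above its day 3 level in all 3 arms. In untreated tumours 67 of the 68 members were above 0 (49.2% of all genes), with a median log2 difference of 2.05, against -0.01 over all genes. In Mock tumours 65 were above 0 (56.1% of all genes) with a median of 1.45, against 0.09, and in IL-12TD tumours 66 (45.1%) with a median of 2.23, against -0.05. A doubling or more was reached by 49, 47 and 55 members in the untreated, Mock and IL-12TD arms, against 1.21%, 1.46% and 4.95% of all genes. The 4 day 7 values lay wholly above the 4 day 3 values for 55, 51 and 60 members, against 9.04%, 20.1% and 18.5% of all genes; they lay wholly below them for 0, 0 and 1, against 20.1%, 23.2% and 18.4%. In limma's fit over all genes, an adjusted p under 0.05 with a higher level at day 7 was reached by 58 of 68 members in untreated tumours (background 11.3%), 58 in Mock (23.8%) and 62 in IL-12TD (20.2%). A lower level was called for 0, 0 and 1 member, Rnu6 in IL-12TD tumours, against 24.2%, 27.1% and 21.6% of all genes. Nothing is read from these counts, since the family was proposed on them.

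**Figure D1:**
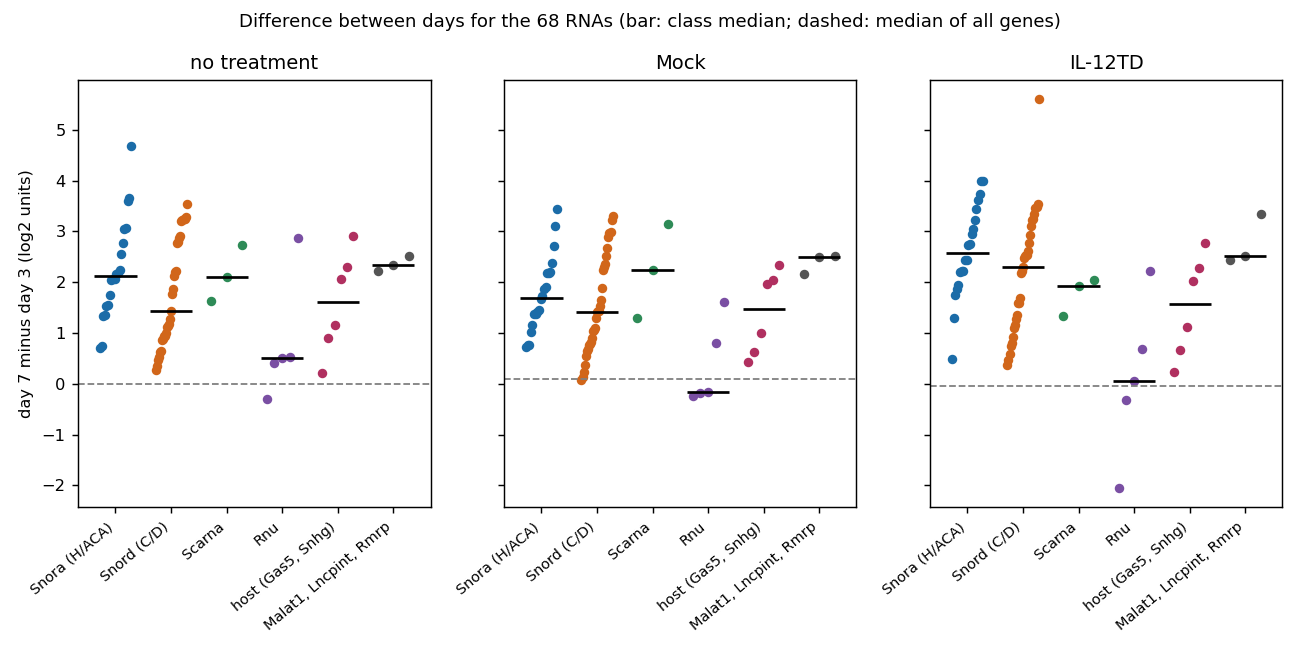
Day 7 minus day 3 in log2 units for each of the 68 RNAs, by class and arm. Each point is 1 RNA, black bars are class medians and dashed lines are medians over all genes; most Snora, Snord and Scarna points lie above 1, while 4 of the 5 Rnu genes lie below 1 in each arm.

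The members made up 34 of the 50 genes with the largest differences in untreated tumours, 28 in Mock and 24 in IL-12TD, and the largest of all 19938 genes was Snora33 in untreated and Snord118 in IL-12TD tumours; in Mock it was Alas2, a heme synthesis gene that is no member. Array means over the family ran from 5.42 to 6.27 at day 3 and from 7.29 to 8.44 at day 7, so the 12 arrays of a day did not overlap with those of the other. Over the 68 members the differences correlated at 0.93 between the untreated and Mock arms, 0.69 between untreated and IL-12TD and 0.60 between Mock and IL-12TD (Pearson's r across genes that share arrays, so no p is given). A filter on dim signals (above the 40th percentile on at least 4 arrays) kept 59 members and removed 9, whose median differences were 0.52, 0.22 and 0.48 in untreated, Mock and IL-12TD tumours. A group has 4 arrays, so a member could pass through 1 group where it was high. The small differences of those removed thus follow in part from the filter.

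All 20 H/ACA snoRNAs were above their day 3 mean in each arm. Class medians were 2.12 in untreated, 1.69 in Mock and 2.58 in IL-12TD tumours, and single differences ran from 0.48 to 4.69. Snora33 had the largest mean difference over the 3 arms and lies within Rps12, the gene of a small-subunit ribosomal protein. In untreated tumours Snora33 had log2 levels of 4.25, 5.06, 4.39 and 5.34 at day 3 and of 7.95, 9.65, 10.79 and 9.40 at day 7. In Mock tumours Snora33 was at 6.40, 4.30, 5.02 and 4.48 and then 6.59, 10.47, 8.28 and 8.67. In IL-12TD tumours Snora33 was at 5.64, 6.65, 6.73 and 6.002 and then 8.72, 10.48, 9.15 and 9.54. The day 3 and day 7 values did not overlap in any arm, and the differences were 4.69 ± 0.58 in untreated, 3.45 ± 0.58 in Mock and 3.22 ± 0.58 in IL-12TD tumours. Snora44 lies within the noncoding host Snhg12. In untreated tumours Snora44 had log2 levels of 6.36, 7.38, 6.41 and 7.72 at day 3 and of 9.69, 10.40, 11.64 and 10.55 at day 7. In Mock tumours Snora44 was at 7.81, 7.06, 7.35 and 6.86 and then 8.29, 11.14, 10.84 and 11.26. In IL-12TD tumours Snora44 was at 8.69, 9.33, 9.14 and 8.80 and then 12.10, 12.01, 11.73 and 12.33. Again no arm overlapped, with differences of 3.61 ± 0.44 in untreated, 3.11 ± 0.44 in Mock and 3.05 ± 0.44 in IL-12TD tumours, and the first Mock day 7 array stood low at 8.29.

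Snora31 lies within Tpt1, the gene of a translationally controlled growth protein. In untreated tumours Snora31 had log2 levels of 5.21, 5.23, 4.69 and 5.79 at day 3 and of 7.82, 8.65, 10.22 and 8.90 at day 7. In Mock tumours Snora31 was at 5.80, 5.04, 5.73 and 4.91 and then 6.87, 9.61, 7.81 and 8.08. In IL-12TD tumours Snora31 was at 5.57, 5.59, 5.87 and 6.02 and then 8.32, 10.36, 9.42 and 9.91. The days were apart in each arm by 3.67 ± 0.45 in untreated, 2.72 ± 0.45 in Mock and 3.74 ± 0.45 in IL-12TD tumours. Snora3 is held by Rpl27a. In untreated tumours Snora3 had log2 levels of 5.59, 5.95, 5.44 and 6.29 at day 3 and of 7.96, 7.95, 8.12 and 8.19 at day 7. In Mock tumours Snora3 was at 6.55, 5.57, 5.70 and 5.60 and then 7.31, 8.23, 7.53 and 7.85. In IL-12TD tumours Snora3 was at 6.05, 5.57, 6.20 and 5.79 and then 8.98, 10.14, 10.28 and 10.22. No arm overlapped, and the differences between days were 2.23 ± 0.25 in untreated, 1.87 ± 0.25 in Mock and 4.00 ± 0.25 in IL-12TD tumours. Snora16a shares the host Snhg12 with Snora44. In untreated tumours Snora16a had log2 levels of 6.49, 7.15, 6.30 and 8.02 at day 3 and of 9.20, 9.29, 9.95 and 9.73 at day 7. In Mock tumours Snora16a was at 7.48, 6.73, 6.94 and 6.44 and then 7.997, 10.04, 8.39 and 10.001. In IL-12TD tumours Snora16a was at 7.88, 7.63, 7.62 and 7.13 and then 10.49, 11.62, 11.44 and 11.20. These differences were 2.56 ± 0.38 in untreated, 2.21 ± 0.38 in Mock and 3.62 ± 0.38 in IL-12TD tumours, without overlap. Snora73b, a copy of the U17 RNA that serves the cutting of the ribosomal RNA precursor, is held by Snhg3. In untreated tumours Snora73b had log2 levels of 7.11, 8.39, 7.16 and 9.19 at day 3 and of 10.74, 10.87, 11.51 and 10.99 at day 7. In Mock tumours Snora73b was at 8.76, 7.95, 8.61 and 7.61 and then 9.10, 11.47, 10.56 and 11.36. In IL-12TD tumours Snora73b was at 9.19, 9.54, 10.02 and 9.48 and then 11.18, 12.17, 11.82 and 11.97. The days differed by 3.06 ± 0.41 in untreated, 2.39 ± 0.41 in Mock and 2.23 ± 0.41 in IL-12TD tumours, and the values of the days did not overlap in any arm.

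Snora69 lies within Rpl39. In untreated tumours Snora69 had log2 levels of 4.33, 4.46, 4.69 and 4.70 at day 3 and of 6.53, 5.999, 8.04 and 6.31 at day 7. In Mock tumours Snora69 was at 4.81, 4.30, 4.44 and 4.67 and then 5.78, 6.11, 4.92 and 5.51. In IL-12TD tumours Snora69 was at 4.95, 4.13, 4.56 and 4.38 and then 7.40, 9.04, 8.88 and 8.67. The Mock difference was the smallest, with 2.18 ± 0.33 in untreated, 1.03 ± 0.33 in Mock and 3.99 ± 0.33 in IL-12TD tumours, and no arm overlapped. Snora2b lies within Kansl2. In untreated tumours Snora2b had log2 levels of 3.63, 4.14, 4.07 and 4.36 at day 3 and of 5.92, 5.53, 5.01 and 5.89 at day 7. In Mock tumours Snora2b was at 4.60, 4.11, 4.53 and 4.15 and then 5.33, 5.47, 4.99 and 4.48. In IL-12TD tumours Snora2b was at 4.34, 4.08, 3.96 and 3.73 and then 6.07, 5.79, 6.58 and 6.46. Here the Mock days overlapped, and the differences were 1.54 ± 0.22 in untreated, 0.72 ± 0.22 in Mock and 2.20 ± 0.22 in IL-12TD tumours. Snora70 lies within Rpl10. In untreated tumours Snora70 had log2 levels of 5.38, 5.68, 5.55 and 5.95 at day 3 and of 6.53, 6.37, 6.001 and 6.61 at day 7. In Mock tumours Snora70 was at 5.37, 5.50, 5.49 and 5.55 and then 6.24, 6.56, 5.84 and 6.37. In IL-12TD tumours Snora70 was at 5.50, 5.61, 5.66 and 5.17 and then 6.92, 7.76, 7.49 and 7.53. The days were apart in each arm by 0.74 ± 0.17 in untreated, 0.77 ± 0.17 in Mock and 1.94 ± 0.17 in IL-12TD tumours, more in IL-12TD tumours than in the other arms.

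The H/ACA snoRNAs with the smallest differences still stood higher at day 7. Snora30 lies within Srcap. In untreated tumours Snora30 had log2 levels of 4.44, 4.76, 4.59 and 4.61 at day 3 and of 6.60, 6.25, 5.65 and 6.13 at day 7. In Mock tumours Snora30 was at 4.81, 4.68, 4.41 and 4.44 and then 6.40, 5.46, 5.85 and 6.14. In IL-12TD tumours Snora30 was at 4.59, 5.10, 5.21 and 4.68 and then 6.79, 6.87, 6.66 and 6.73. Without overlap, it differed by 1.56 ± 0.18 in untreated, 1.38 ± 0.18 in Mock and 1.87 ± 0.18 in IL-12TD tumours. Snora62 lies within Rpsa, the gene of a small-subunit ribosomal protein. In untreated tumours Snora62 had log2 levels of 5.37, 5.24, 5.39 and 5.49 at day 3 and of 6.34, 6.90, 6.85 and 6.81 at day 7. In Mock tumours Snora62 was at 5.59, 5.15, 5.05 and 5.05 and then 5.93, 6.90, 6.50 and 6.14. In IL-12TD tumours Snora62 was at 5.21, 5.85, 6.08 and 5.87 and then 6.55, 7.43, 7.08 and 7.09. These days were separate too, by 1.35 ± 0.20 in untreated, 1.16 ± 0.20 in Mock and 1.29 ± 0.20 in IL-12TD tumours. Snora41 lies within Eef1b2, the gene of an elongation factor subunit. In untreated tumours Snora41 had log2 levels of 3.44, 3.51, 3.82 and 3.54 at day 3 and of 4.02, 4.22, 4.63 and 4.25 at day 7. In Mock tumours Snora41 was at 3.37, 3.63, 3.37 and 3.59 and then 4.58, 3.98, 4.31 and 4.15. In IL-12TD tumours Snora41 was at 4.34, 3.98, 4.03 and 3.53 and then 4.45, 4.87, 4.36 and 4.11. Its differences were below 1 in each arm, at 0.70 ± 0.17 in untreated, 0.77 ± 0.17 in Mock and 0.48 ± 0.17 in IL-12TD tumours, and the IL-12TD days overlapped.

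The 31 C/D snoRNAs were all above their day 3 mean too, with class medians of 1.43 in untreated, 1.41 in Mock and 2.30 in IL-12TD tumours and single differences from 0.06 to 5.61. Snord118, the U8 RNA needed to make the RNAs of the large ribosomal subunit, lies in no other gene of the reference. In untreated tumours Snord118 had log2 levels of 4.65, 6.03, 4.68 and 6.27 at day 3 and of 8.08, 8.80, 8.73 and 8.97 at day 7. In Mock tumours Snord118 was at 6.82, 5.14, 6.43 and 5.53 and then 5.79, 9.36, 8.58 and 9.39. In IL-12TD tumours Snord118 was at 6.98, 6.53, 6.96 and 6.67 and then 11.59, 12.51, 12.64 and 12.84. The IL-12TD days were 5.61 apart, the largest of all genes in that arm, while the differences over the arms were 3.24 ± 0.52 in untreated, 2.30 ± 0.52 in Mock and 5.61 ± 0.52 in IL-12TD tumours. In Mock tumours the days overlapped through the first day 7 array at 5.79.

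Snord104 lies within a noncoding transcript. In untreated tumours Snord104 had log2 levels of 8.52, 9.48, 8.31 and 9.96 at day 3 and of 12.48, 12.60, 12.55 and 12.79 at day 7. In Mock tumours Snord104 was at 9.89, 9.45, 9.06 and 8.99 and then 12.34, 13.03, 12.75 and 12.47. In IL-12TD tumours Snord104 was at 9.95, 10.23, 10.36 and 10.41 and then 12.38, 13.0, 12.74 and 12.71. Its days were apart in each arm, by 3.54 ± 0.25 in untreated, 3.30 ± 0.25 in Mock and 2.47 ± 0.25 in IL-12TD tumours. Snord14e, a copy of the U14 RNA that serves the making of the small-subunit ribosomal RNA, lies within Hspa8, the gene of a constitutive heat shock protein. In untreated tumours Snord14e had log2 levels of 5.61, 6.16, 5.78 and 6.70 at day 3 and of 9.56, 9.19, 8.30 and 10.13 at day 7. In Mock tumours Snord14e was at 6.29, 6.32, 6.25 and 6.28 and then 9.69, 9.63, 9.75 and 8.96. In IL-12TD tumours Snord14e was at 6.51, 6.35, 6.63 and 6.70 and then 9.22, 9.62, 9.64 and 9.44. The differences were near 3 in each arm, at 3.23 ± 0.25 in untreated, 3.22 ± 0.25 in Mock and 2.94 ± 0.25 in IL-12TD tumours. Snord35b was among the RNAs with the largest differences. In untreated tumours Snord35b had log2 levels of 6.11, 7.14, 6.11 and 7.52 at day 3 and of 10.02, 9.69, 8.80 and 10.04 at day 7. In Mock tumours Snord35b was at 6.88, 7.26, 6.80 and 6.68 and then 9.71, 10.22, 9.70 and 9.55. In IL-12TD tumours Snord35b was at 6.88, 7.69, 7.27 and 7.32 and then 10.31, 10.84, 10.21 and 10.73. There too the days were separate, by 2.92 ± 0.27 in untreated, 2.89 ± 0.27 in Mock and 3.23 ± 0.27 in IL-12TD tumours.

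Snord53 lies within Wdr43, the gene of a ribosome assembly protein. In untreated tumours Snord53 had log2 levels of 6.90, 7.24, 6.77 and 7.45 at day 3 and of 10.23, 10.42, 10.32 and 10.50 at day 7. In Mock tumours Snord53 was at 7.71, 7.31, 7.48 and 7.15 and then 10.28, 10.67, 10.20 and 10.49. In IL-12TD tumours Snord53 was at 7.90, 8.29, 8.31 and 8.35 and then 10.13, 11.13, 10.81 and 10.86. Replicates were close, and the days were apart by 3.28 ± 0.18 in untreated, 3.00 ± 0.18 in Mock and 2.52 ± 0.18 in IL-12TD tumours. Snord82 lies within Ncl, the gene of nucleolin. In untreated tumours Snord82 had log2 levels of 6.43, 7.88, 7.63 and 8.44 at day 3 and of 10.23, 10.32, 10.35 and 10.63 at day 7. In Mock tumours Snord82 was at 8.10, 8.24, 7.55 and 7.56 and then 9.96, 10.58, 10.54 and 10.39. In IL-12TD tumours Snord82 was at 8.41, 9.21, 9.53 and 9.23 and then 10.25, 10.48, 10.34 and 10.77. With IL-12TD its day 3 level was already high, and the differences were 2.79 ± 0.28 in untreated, 2.51 ± 0.28 in Mock and 1.36 ± 0.28 in IL-12TD tumours. Snord16a lies within Rpl4. In untreated tumours Snord16a had log2 levels of 6.69, 7.40, 7.04 and 7.44 at day 3 and of 9.58, 8.25, 6.84 and 8.43 at day 7. In Mock tumours Snord16a was at 7.21, 7.49, 7.44 and 7.28 and then 9.32, 7.39, 8.05 and 7.91. In IL-12TD tumours Snord16a was at 5.85, 6.23, 5.65 and 6.14 and then 9.98, 8.69, 9.51 and 9.52. Only with IL-12TD were the days separate, and the differences were 1.13 ± 0.38 in untreated, 0.82 ± 0.38 in Mock and 3.46 ± 0.38 in IL-12TD tumours.

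Snord95 lies within Rack1, the gene of a ribosome-bound scaffold protein. In untreated tumours Snord95 had log2 levels of 4.46, 6.12, 5.78 and 5.81 at day 3 and of 7.56, 6.51, 5.38 and 6.72 at day 7. In Mock tumours Snord95 was at 5.35, 6.11, 5.66 and 6.11 and then 7.76, 6.06, 6.29 and 5.71. In IL-12TD tumours Snord95 was at 4.36, 4.91, 3.94 and 4.84 and then 7.49, 6.24, 7.24 and 7.24. The days overlapped in untreated and Mock tumours and were apart with IL-12TD, the differences being 1.00 ± 0.40 in untreated, 0.64 ± 0.40 in Mock and 2.54 ± 0.40 in IL-12TD tumours. Snord42b lies within Rpl23a. In untreated tumours Snord42b had log2 levels of 5.83, 6.35, 6.21 and 6.34 at day 3 and of 7.53, 6.67, 5.87 and 7.22 at day 7. In Mock tumours Snord42b was at 6.26, 6.16, 6.06 and 6.21 and then 7.43, 6.28, 6.80 and 6.33. In IL-12TD tumours Snord42b was at 4.77, 5.20, 5.25 and 5.08 and then 7.23, 6.01, 6.55 and 6.86. It differed by 0.64 ± 0.27 in untreated, 0.54 ± 0.27 in Mock and 1.59 ± 0.27 in IL-12TD tumours, with overlap in untreated tumours alone. Snord52 lies within the noncoding gene 1110038B12Rik. In untreated tumours Snord52 had log2 levels of 3.51, 3.63, 3.58 and 3.86 at day 3 and of 4.69, 3.75, 3.80 and 3.73 at day 7. In Mock tumours Snord52 was at 3.86, 3.43, 3.47 and 3.90 and then 4.32, 3.77, 3.58 and 3.49. In IL-12TD tumours Snord52 was at 3.48, 3.40, 3.62 and 3.70 and then 5.27, 7.08, 6.35 and 6.59. Its untreated and Mock days overlapped and its IL-12TD days did not, with differences of 0.35 ± 0.26 in untreated, 0.13 ± 0.26 in Mock and 2.77 ± 0.26 in IL-12TD tumours; the small Mock value changed sign when the first Mock day 7 array was left out (-0.05) or a second quantile normalization was applied (-0.11).

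The 5 C/D snoRNAs with the smallest mean difference over the arms follow. Snord61 lies within Rbmx. In untreated tumours Snord61 had log2 levels of 2.74, 2.52, 2.33 and 2.17 at day 3 and of 2.74, 2.35, 2.59 and 3.15 at day 7. In Mock tumours Snord61 was at 2.51, 2.69, 2.63 and 2.35 and then 3.04, 2.32, 2.32 and 2.76. In IL-12TD tumours Snord61 was at 2.59, 2.60, 2.49 and 2.21 and then 2.89, 2.58, 3.06 and 3.25. All arms overlapped, at 0.27 ± 0.18 in untreated, 0.06 ± 0.18 in Mock and 0.47 ± 0.18 in IL-12TD tumours, and the Mock value was below 0 in 6 of the other settings. Snord58b lies within Rpl17. In untreated tumours Snord58b had log2 levels of 2.94, 2.82, 2.70 and 2.44 at day 3 and of 3.75, 2.90, 3.04 and 3.09 at day 7. In Mock tumours Snord58b was at 2.85, 2.49, 2.86 and 2.79 and then 3.03, 2.71, 3.04 and 3.10. In IL-12TD tumours Snord58b was at 3.13, 3.05, 2.57 and 2.88 and then 3.44, 2.82, 3.20 and 3.67. Its days overlapped in every arm, with 0.47 ± 0.18 in untreated, 0.22 ± 0.18 in Mock and 0.38 ± 0.18 in IL-12TD tumours. Snord85 is next. In untreated tumours Snord85 had log2 levels of 3.76, 4.18, 4.28 and 4.08 at day 3 and of 4.87, 4.42, 4.52 and 4.58 at day 7. In Mock tumours Snord85 was at 3.93, 4.33, 4.53 and 4.11 and then 4.86, 4.64, 4.63 and 4.22. In IL-12TD tumours Snord85 was at 4.15, 4.40, 4.24 and 4.30 and then 4.99, 4.79, 4.92 and 4.73. The differences stayed under 1, at 0.52 ± 0.14 in untreated, 0.36 ± 0.14 in Mock and 0.59 ± 0.14 in IL-12TD tumours, and the Mock days overlapped. Snord73a lies within Rps3a1. In untreated tumours Snord73a had log2 levels of 3.43, 3.87, 3.50 and 3.80 at day 3 and of 4.51, 4.13, 4.35 and 4.10 at day 7. In Mock tumours Snord73a was at 3.59, 3.24, 3.63 and 3.71 and then 4.23, 4.07, 4.47 and 4.45. In IL-12TD tumours Snord73a was at 3.53, 4.22, 3.69 and 3.49 and then 4.56, 4.63, 4.50 and 4.46. Its days were apart in each arm by a small 0.62 ± 0.15 in untreated, 0.76 ± 0.15 in Mock and 0.81 ± 0.15 in IL-12TD tumours. Snord22 lies within Snhg1. In untreated tumours Snord22 had log2 levels of 4.30, 4.34, 3.93 and 3.98 at day 3 and of 5.33, 4.85, 4.74 and 5.15 at day 7. In Mock tumours Snord22 was at 4.28, 4.08, 4.66 and 3.99 and then 5.31, 4.36, 5.09 and 4.99. In IL-12TD tumours Snord22 was at 4.05, 4.51, 4.53 and 4.36 and then 5.03, 5.33, 5.41 and 5.36. It differed by 0.88 ± 0.18 in untreated, 0.69 ± 0.18 in Mock and 0.92 ± 0.18 in IL-12TD tumours, with overlap in Mock tumours.

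The 3 Scarna RNAs were higher at day 7 in each arm without overlap. Scarna17 guides modification of spliceosomal RNA in Cajal bodies. In untreated tumours Scarna17 had log2 levels of 8.26, 8.43, 8.32 and 8.58 at day 3 and of 11.04, 11.41, 10.68 and 11.42 at day 7. In Mock tumours Scarna17 was at 8.55, 8.66, 8.36 and 8.18 and then 11.24, 11.60, 11.93 and 11.55. In IL-12TD tumours Scarna17 was at 8.76, 9.15, 9.22 and 9.10 and then 10.76, 11.24, 10.75 and 11.16. Its difference was largest in Mock tumours, with 2.74 ± 0.17 in untreated, 3.14 ± 0.17 in Mock and 1.92 ± 0.17 in IL-12TD tumours. Scarna13 lies within Snhg10. In untreated tumours Scarna13 had log2 levels of 9.31, 9.99, 9.13 and 10.88 at day 3 and of 12.14, 11.85, 11.49 and 12.23 at day 7. In Mock tumours Scarna13 was at 10.13, 10.14, 9.98 and 9.49 and then 11.93, 12.39, 12.23 and 12.12. In IL-12TD tumours Scarna13 was at 9.997, 10.52, 10.75 and 10.43 and then 12.49, 12.44, 12.46 and 12.46. These days were about 2 apart in each arm, at 2.10 ± 0.25 in untreated, 2.23 ± 0.25 in Mock and 2.04 ± 0.25 in IL-12TD tumours. Scarna8 lies within Haus6, the gene of a spindle protein. In untreated tumours Scarna8 had log2 levels of 4.65, 4.29, 4.06 and 4.40 at day 3 and of 6.60, 5.65, 5.16 and 6.49 at day 7. In Mock tumours Scarna8 was at 4.77, 4.92, 4.53 and 4.46 and then 6.35, 5.61, 6.03 and 5.85. In IL-12TD tumours Scarna8 was at 5.01, 4.78, 4.81 and 4.85 and then 6.54, 6.07, 5.95 and 6.20. The differences were 1.63 ± 0.22 in untreated, 1.29 ± 0.22 in Mock and 1.33 ± 0.22 in IL-12TD tumours.

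The 5 Rnu genes differed less between days than the other classes, but Rnu5g, Rnu6 and Rnu7 were dim, with mean log2 levels over all arrays of 2.57, 2.34 and 3.30. Their class medians were 0.50 in untreated, -0.16 in Mock and 0.05 in IL-12TD tumours. The exception was Rnu3a, the U3 RNA, which despite its name is a nucleolar C/D RNA that serves the first cuts of the ribosomal RNA precursor. In untreated tumours Rnu3a had log2 levels of 4.72, 5.29, 4.92 and 5.60 at day 3 and of 7.06, 7.74, 9.36 and 7.88 at day 7. In Mock tumours Rnu3a was at 6.10, 5.35, 5.27 and 5.40 and then 5.35, 8.43, 6.85 and 7.93. In IL-12TD tumours Rnu3a was at 5.86, 5.67, 6.02 and 5.80 and then 7.20, 8.91, 8.01 and 8.13. It differed by 2.88 ± 0.46 in untreated, 1.62 ± 0.46 in Mock and 2.23 ± 0.46 in IL-12TD tumours, with overlap in Mock tumours through the first day 7 array at 5.35. Rnu6 is the U6 RNA of the catalytic core of the spliceosome. In untreated tumours Rnu6 had log2 levels of 2.14, 1.95, 1.90 and 2.59 at day 3 and of 1.86, 2.25, 1.63 and 1.62 at day 7. In Mock tumours Rnu6 was at 2.09, 2.35, 2.22 and 2.08 and then 1.71, 2.07, 1.90 and 2.35. In IL-12TD tumours Rnu6 was at 4.87, 3.57, 2.75 and 4.60 and then 2.23, 1.70, 1.72 and 1.95. With IL-12TD its days were separate in the other direction, and the differences were -0.31 ± 0.28 in untreated, -0.18 ± 0.28 in Mock and -2.05 ± 0.28 in IL-12TD tumours. The signals of Rnu6 in the other 5 groups were near the bottom of the scale, with group means from 1.84 to 2.19.

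Of the host genes, Gas5 carries several C/D snoRNAs in its introns. In untreated tumours Gas5 had log2 levels of 6.12, 6.82, 6.42 and 6.75 at day 3 and of 9.64, 9.31, 9.33 and 9.49 at day 7. In Mock tumours Gas5 was at 6.96, 6.52, 6.79 and 6.85 and then 9.50, 9.44, 9.07 and 8.44. In IL-12TD tumours Gas5 was at 6.78, 7.02, 7.20 and 7.12 and then 9.65, 9.82, 9.82 and 9.90. No arm overlapped, and the differences were 2.92 ± 0.18 in untreated, 2.33 ± 0.18 in Mock and 2.77 ± 0.18 in IL-12TD tumours. Gas5 had 4 probesets, and their differences disagreed in size, from 0.47 to 2.92 in untreated, 0.06 to 2.33 in Mock and 1.04 to 2.94 in IL-12TD tumours. Snhg17 had 3 probesets, of which the brightest is used here. In untreated tumours Snhg17 had log2 levels of 7.13, 7.19, 7.23 and 7.65 at day 3 and of 9.25, 9.61, 9.84 and 9.73 at day 7. In Mock tumours Snhg17 was at 7.80, 7.45, 7.35 and 7.22 and then 9.04, 9.97, 9.33 and 9.33. In IL-12TD tumours Snhg17 was at 7.41, 7.50, 7.91 and 7.44 and then 9.54, 10.29, 9.82 and 9.74. The days were separate, by 2.31 ± 0.19 in untreated, 1.96 ± 0.19 in Mock and 2.29 ± 0.19 in IL-12TD tumours. Snhg15 gave the most even picture. In untreated tumours Snhg15 had log2 levels of 5.97, 6.31, 5.95 and 6.32 at day 3 and of 7.87, 8.33, 8.38 and 8.24 at day 7. In Mock tumours Snhg15 was at 6.33, 6.29, 6.05 and 6.48 and then 7.68, 8.72, 8.32 and 8.62. In IL-12TD tumours Snhg15 was at 5.92, 6.64, 6.59 and 6.32 and then 8.10, 8.82, 8.39 and 8.28. Its differences were 2.07 ± 0.19 in untreated, 2.05 ± 0.19 in Mock and 2.03 ± 0.19 in IL-12TD tumours.

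Snhg5, another host of C/D snoRNAs, was higher at day 7 by less. In untreated tumours Snhg5 had log2 levels of 5.33, 5.13, 5.0 and 5.25 at day 3 and of 6.81, 6.06, 5.37 and 6.04 at day 7. In Mock tumours Snhg5 was at 5.13, 5.23, 5.13 and 5.17 and then 6.44, 5.92, 6.38 and 5.89. In IL-12TD tumours Snhg5 was at 4.60, 5.09, 5.13 and 5.18 and then 6.44, 6.04, 5.91 and 6.08. No overlap was seen, with 0.89 ± 0.20 in untreated, 0.99 ± 0.20 in Mock and 1.12 ± 0.20 in IL-12TD tumours. Snhg16 is a further such host. In untreated tumours Snhg16 had log2 levels of 4.77, 5.37, 5.22 and 5.46 at day 3 and of 7.02, 6.31, 5.52 and 6.64 at day 7. In Mock tumours Snhg16 was at 5.36, 5.59, 5.40 and 5.23 and then 6.60, 5.44, 6.26 and 5.80. In IL-12TD tumours Snhg16 was at 5.72, 5.31, 5.62 and 5.73 and then 6.20, 5.96, 6.71 and 6.21. The Mock days overlapped, and the differences were 1.16 ± 0.24 in untreated, 0.64 ± 0.24 in Mock and 0.67 ± 0.24 in IL-12TD tumours. Snhg11, the remaining host, differed by 0.20, 0.43 and 0.24 in untreated, Mock and IL-12TD tumours.

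The nuclear long RNAs and Rmrp were at least 2 log2 units higher at day 7 in every arm. Malat1 binds nuclear speckles, where splicing factors gather. In untreated tumours Malat1 had log2 levels of 9.78, 9.28, 8.81 and 10.21 at day 3 and of 12.61, 12.10, 10.33 and 12.41 at day 7. In Mock tumours Malat1 was at 9.90, 9.95, 9.65 and 9.28 and then 12.45, 11.81, 12.22 and 12.36. In IL-12TD tumours Malat1 was at 10.46, 10.22, 10.02 and 10.50 and then 12.69, 12.72, 12.95 and 12.93. No arm overlapped, though the third untreated day 7 array stood low at 10.33, and the differences were 2.34 ± 0.32 in untreated, 2.52 ± 0.32 in Mock and 2.52 ± 0.32 in IL-12TD tumours. Lncpint is a long noncoding RNA induced by p53. In untreated tumours Lncpint had log2 levels of 7.03, 7.45, 7.08 and 8.08 at day 3 and of 10.27, 9.90, 8.13 and 10.19 at day 7. In Mock tumours Lncpint was at 7.55, 7.69, 7.37 and 7.40 and then 10.35, 9.65, 9.72 and 10.28. In IL-12TD tumours Lncpint was at 7.65, 7.58, 7.46 and 7.75 and then 10.84, 10.87, 10.99 and 11.08. It had the same low array at 8.13, and differed by 2.21 ± 0.29 in untreated, 2.50 ± 0.29 in Mock and 3.34 ± 0.29 in IL-12TD tumours. Rmrp, the RNA of the enzyme RNase MRP that trims ribosomal RNA, lies in no other gene. In untreated tumours Rmrp had log2 levels of 8.31, 9.26, 8.91 and 9.71 at day 3 and of 11.38, 11.51, 11.80 and 11.58 at day 7. In Mock tumours Rmrp was at 9.78, 8.73, 9.25 and 8.56 and then 9.83, 11.995, 11.37 and 11.78. In IL-12TD tumours Rmrp was at 9.46, 9.96, 10.33 and 9.62 and then 11.87, 12.70, 12.26 and 12.29. The first Mock day 7 array, at 9.83, lay close to the highest Mock day 3 value of 9.78, and the differences were 2.52 ± 0.34 in untreated, 2.16 ± 0.34 in Mock and 2.44 ± 0.34 in IL-12TD tumours.

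**Figure D2:**
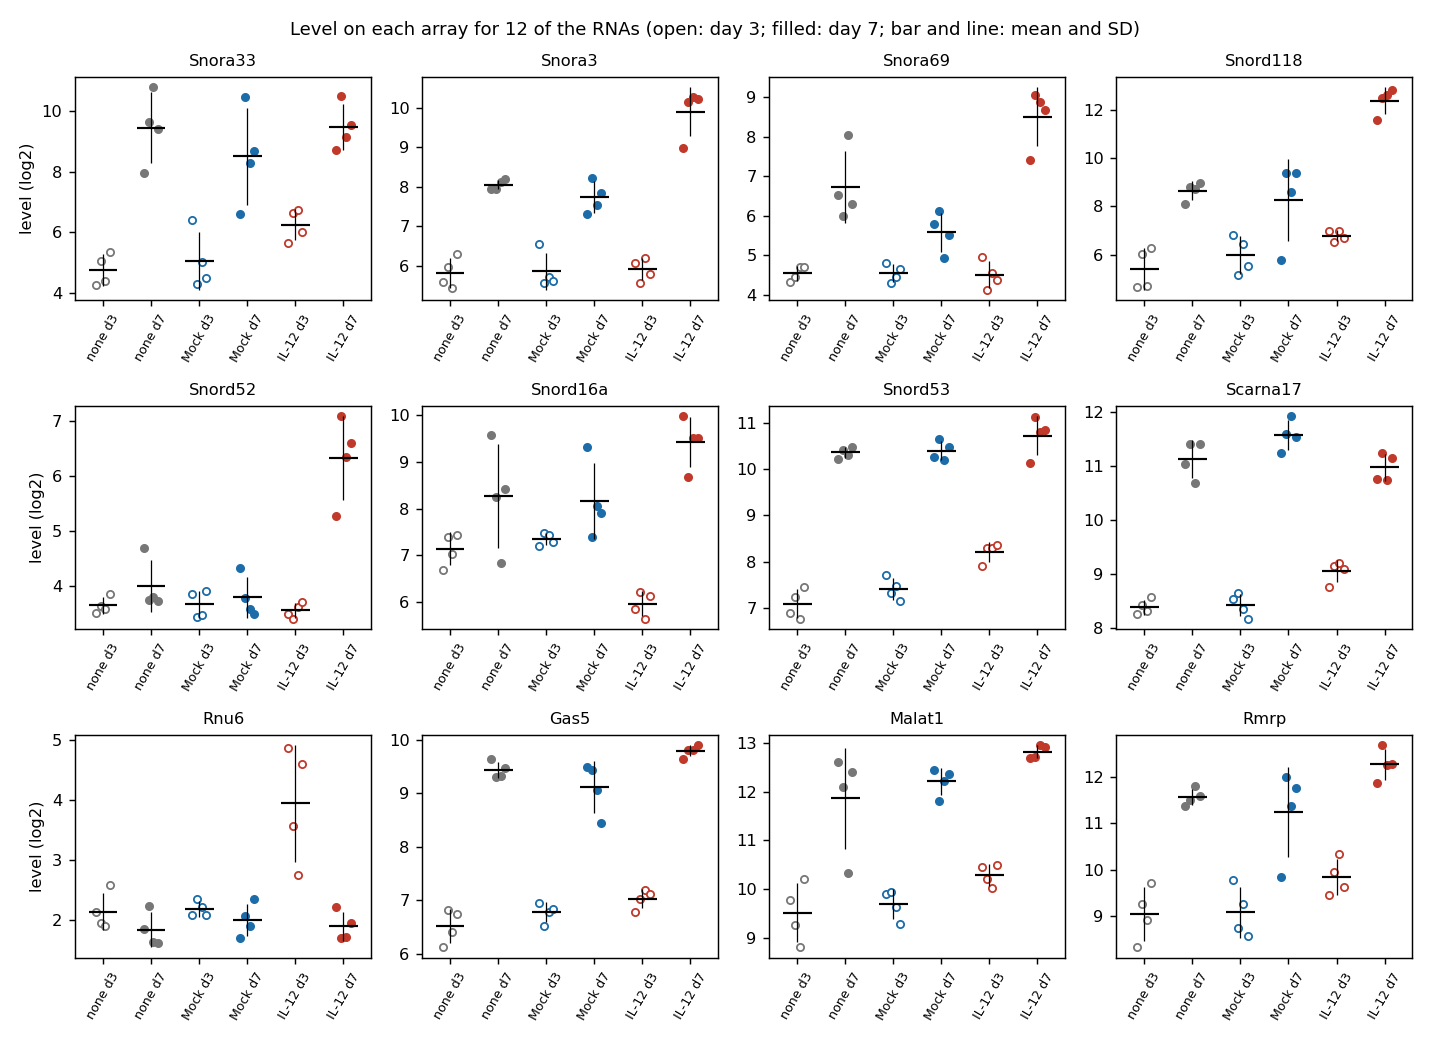
Log2 level on each array for 12 members, by treatment and day (none is no treatment, d3 and d7 are day 3 and day 7). Open circles are day 3, filled circles day 7, and bars with lines give the mean and SD of the 4 arrays; Snora33, Gas5, Malat1 and Snord53 are higher at day 7 in each arm, Snord52 with IL-12TD alone, and Rnu6 is high with IL-12TD at day 3 alone.

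The measured protein-coding hosts mostly did not share the difference of the RNAs within them. Gas5 was the only noncoding host measured for these pairs, so other noncoding hosts such as Snhg3 and Snhg12 could not be compared. Of the members, 54 lie within another gene of the RefSeq annotation, 41 in a protein-coding gene and 13 in a noncoding gene alone; 21 lie in a gene of a ribosomal protein (named Rpl or Rps). Nesting was judged by coordinates without regard to strand. A host was measured by its own probeset for 30 pairs with 26 hosts. The member's day difference was above its host's in 30 pairs in untreated, 30 in Mock and 28 in IL-12TD tumours. The members' median over these pairs was 1.81, 1.41 and 2.21, and the median over the 26 distinct hosts -0.16, -0.25 and -0.41. Of the 26 hosts, the fit called 2 higher and 8 lower in untreated tumours, 2 higher and 13 lower in Mock, and 5 higher and 14 lower in IL-12TD. Over all genes the shares called higher and lower were 11.3% and 24.2%, 23.8% and 27.1%, and 20.2% and 21.6%. Of the 6 host genes that are themselves members (Gas5 and those named Snhg), 5, 6 and 5 were called higher and 0 lower in those arms. Rps12 differed by -0.03, -0.22 and -1.66 in those arms, while Snora33 within it differed by 4.69, 3.45 and 3.22. Rpl27a differed by 0.01, 0.00 and -0.82, against 2.23, 1.87 and 4.00 for Snora3. Among the measured hosts Gas5 stood apart, at 2.92, 2.33 and 2.77, beside 3.20, 2.67 and 2.18 for Snord47 within it. Leaving Gas5 out, the highest host differences were 0.38, 0.46 and 1.17. The 0.38 and 0.46 are those of Mcmdc2, paired with Snord87, which also lies within the unmeasured noncoding Snhg6. Snord8 likewise lies within both Chd8 and an unmeasured noncoding gene, so the host of these RNAs is uncertain.

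**Figure D3:**
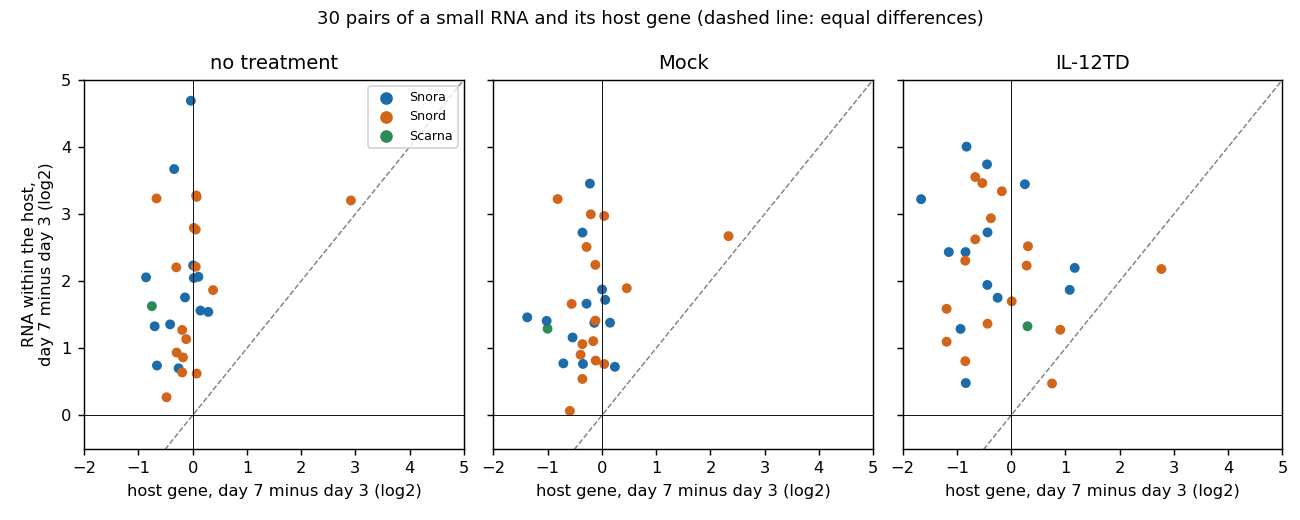
Day 7 minus day 3 (log2) of a small RNA against that of the gene it lies within, for the 30 pairs with a measured host, by arm. Points above the dashed line are RNAs whose difference exceeds that of the host, which holds for 30, 30 and 28 pairs; the point far to the right is Snord47 within Gas5.

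RNAs from the same host did not move by the same amount. Within Rps3a1, Snord73b differed between days by 3.25, 2.97 and 2.30 in untreated, Mock and IL-12TD tumours, and Snord73a by 0.62, 0.76 and 0.81. Within the noncoding gene 2410006H16Rik, Snord49b differed by 2.87, 2.36 and 3.47 and Snord49a by 1.43, 0.79 and 2.53. Within Ncl the IL-12TD arm had the largest difference of the 3 for Snora75 and the smallest for Snord82. Snora75 differed by 2.05, 1.66 and 2.73 and Snord82 by 2.79, 2.51 and 1.36. These pairs were chosen after their values were seen.

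Most lists of genes for proteins that work with these RNAs had more members called lower than higher at day 7, again as a description. All genes were also called lower more often than higher, by 24.2% against 11.3% in untreated, 27.1% against 23.8% in Mock and 21.6% against 20.2% in IL-12TD tumours. Of the 19 measured genes for snoRNA-protein particles and their assembly, the fit called 0 higher and 11 lower in untreated, 0 and 14 in Mock, and 2 and 9 in IL-12TD tumours, with medians of -0.47, -0.59 and -0.37. Snu13, the protein that first binds the kink of C/D RNAs, differed by -1.06 ± 0.13 in untreated and -1.29 ± 0.13 in Mock tumours. Dkc1, the pseudouridine synthase of H/ACA particles, differed by -1.78 ± 0.19 in Mock. Ruvbl1, a helicase-like assembly factor, differed by -0.96 ± 0.13 in untreated and -0.91 ± 0.13 in IL-12TD tumours. In the latter arm Tgs1, which caps snoRNAs and small nuclear RNAs, differed by 0.85 ± 0.19 and Shq1, a Dkc1 chaperone, by 0.73 ± 0.21.

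Of the 21 genes of Cajal bodies and assembly of spliceosomal particles, 0, 0 and 1 were called higher and 12, 13 and 10 lower, with Prmt5 at -1.11 ± 0.17 in untreated and -1.51 ± 0.17 in Mock tumours. Of the 11 protein genes of RNase MRP and RNase P, 1, 1 and 0 were higher and 7, 7 and 6 lower, with Rpp38 at -1.49 ± 0.18 in Mock tumours. Of the 24 genes of RNA polymerase I and the nucleolus, 2, 0 and 5 were higher and 14, 16 and 9 lower; Ddx21, a nucleolar helicase, differed by -0.98 ± 0.12, -1.26 ± 0.12 and -0.78 ± 0.12, while Taf1d, a polymerase I factor, differed by 1.13 ± 0.34 in untreated and 2.71 ± 0.34 in IL-12TD tumours.

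The list of paraspeckle and speckle genes and the joint list of exosome and decay genes had more members called higher than lower with IL-12TD. Of 14 genes of paraspeckles and nuclear speckles, 6, 5 and 9 were called higher and 3, 5 and 2 lower; Rbm25, a splicing regulator, differed by 2.66 ± 0.22 in untreated and 2.80 ± 0.22 in Mock tumours, and Srrm2, a speckle scaffold, by 1.75 ± 0.14 with IL-12TD. Of 16 genes of the nuclear exosome and nonsense-mediated decay, which degrade faulty and spliced-out RNA, 1, 0 and 7 were higher and 10, 10 and 2 lower; Exosc1, an exosome subunit, differed by -0.98 ± 0.14, -1.39 ± 0.14 and -0.67 ± 0.14, and the decay kinase Smg1 by 1.62 ± 0.20 in IL-12TD tumours. The 2 genes of that joint list called lower with IL-12TD were exosome subunits, Exosc1 and Exosc3 (-0.877 ± 0.145). Of 14 cell cycle genes, 1, 0 and 3 were higher and 12, 13 and 5 lower.

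Cell markers also moved between the days. The mean log2 level over 14 pan-leukocyte markers averaged 6.44 ± 0.69 at day 3 and 5.53 ± 0.31 at day 7 in untreated, 6.60 ± 0.16 and 6.21 ± 0.31 in Mock and 8.14 ± 0.18 and 7.73 ± 0.23 in IL-12TD tumours (SD, n = 4). That of 12 macrophage markers averaged 6.83 ± 0.71 and 5.58 ± 0.24, 6.85 ± 0.11 and 6.13 ± 0.30, and 7.36 ± 0.43 and 6.91 ± 0.33 in the same order. That of 11 neutrophil markers averaged 4.29 ± 0.20 and 4.35 ± 0.27, 4.29 ± 0.10 and 4.61 ± 0.28, and 6.21 ± 0.48 and 4.51 ± 0.16, and that of 11 T cell markers 4.54 ± 0.31 and 4.54 ± 0.12, 4.57 ± 0.18 and 4.92 ± 0.11, and 7.03 ± 0.13 and 6.51 ± 0.20. That of 12 melanocyte markers averaged 10.40 ± 0.08 and 10.24 ± 0.21, 10.39 ± 0.02 and 10.14 ± 0.41, and 9.87 ± 0.06 and 10.28 ± 0.22. Of the macrophage markers the fit called 10, 7 and 4 of 12 lower and 0, 0 and 1 higher at day 7, and of the leukocyte markers 9, 2 and 6 of 14 lower and 0, 1 and 1 higher. Neutrophil markers were called lower for 0, 0 and 9 of 11 and higher for 0, 5 and 0, T cell markers lower for 0, 0 and 5 of 11 and higher for 1, 3 and 0, and melanocyte markers lower for 4, 3 and 0 of 12 and higher for 0, 1 and 4. Their part in the differences of the RNAs was not tested.

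To look at interleukin 12 in the transferred T cells, IL-12TD was set against Mock tumours of the same day. The Mock T cells were un-transduced, so an effect of interleukin 12 and one of transduction itself cannot be told apart. At day 7, 29 of the 68 members were higher and 1 lower with IL-12TD (limma, adjusted p under 0.05 over all genes), against 12.9% and 8.83% of all genes, and the median difference was 0.61 against -0.08. Those higher were 15 of 20 H/ACA RNAs (class median 1.16), 11 of 31 C/D RNAs (0.36), 1 of 6 hosts (0.15) and 2 of the 3 RNAs Malat1, Lncpint and Rmrp (0.95); differences between classes were not tested. Without the first day 7 array of each group, 28 were higher and 1 lower, against 2740 and 1650 of all 19938 genes. The arrays compared here also entered the differences between days on which the family was selected. The family's counts at day 7, and those at day 3 below, are therefore a description.

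Snord118 had the largest rise. Its 4 Mock values at day 7 were 5.79, 9.36, 8.58 and 9.39 and its IL-12TD values 11.59, 12.51, 12.64 and 12.84. The groups did not overlap, and the difference was 4.11 ± 0.52 (adjusted p = 1.07e-06). Snora69 was at 5.78, 6.11, 4.92 and 5.51 in Mock and 7.40, 9.04, 8.88 and 8.67 in IL-12TD tumours, a difference of 2.92 ± 0.33 (adjusted p = 1.61e-07). Snord52 was near 4 in Mock tumours and between 5.27 and 7.08 with IL-12TD, a difference of 2.53 ± 0.26 (adjusted p = 2.16e-08). None of these groups overlapped.

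Further H/ACA RNAs that rose without overlap were Snora3 by 2.18 ± 0.25 (adjusted p = 2.11e-07), Snora16a by 2.08 ± 0.38 (adjusted p = 0.000166) and Snora70 by 1.18 ± 0.17 (adjusted p = 9.97e-06). Snora2b rose by 1.16 ± 0.22 (adjusted p = 0.000274) and Snora44 by 1.66 ± 0.44 (adjusted p = 0.00765), although the latter came to 0.94 without the low first Mock array. Scarna17 alone fell, from 11.24, 11.60, 11.93 and 11.55 in Mock to 10.76, 11.24, 10.75 and 11.16 with IL-12TD, a difference of -0.60 ± 0.17 (adjusted p = 0.0101); without the third Mock array the adjusted p was 0.0573. Gas5 rose by 0.69 ± 0.18 (adjusted p = 0.00611), Lncpint by 0.95 ± 0.29 (adjusted p = 0.0218) and Rmrp by 1.03 ± 0.34 (adjusted p = 0.0272). The Gas5 call was lost under a second quantile normalization (adjusted p = 0.0814), and those of Lncpint and Rmrp were lost in 4 and 9 of 18 other settings; Rmrp came to 0.56 without the first Mock array. Malat1 differed by 0.61 ± 0.32 (adjusted p = 0.172).

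Of the members that rose at day 7, 13 have a measured host. Of their 12 hosts 1 was called higher and 3 lower, against 12.9% and 8.83% of all genes. With so few hosts nothing is read from these counts. The median difference was 1.26 for these members and -0.06 for the hosts.

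At day 3 members differed in both directions. With IL-12TD 14 were higher and 3 lower, against 17.3% and 25.9% of all genes, so the shares of the family, like its median of 0.19 against 0.02, lay near or below the background. Fitted on the compared groups alone, 27 were called at day 3 (21 higher, 6 lower), against 3101 higher and 5185 lower of all 19938 genes. The family's share called higher at day 3 was then above that of all genes. At day 7 that fit called 28 members higher and 1 lower, against 2375 and 1556 genes. Rnu6 read 2.09, 2.35, 2.22 and 2.08 in Mock and 4.87, 3.57, 2.75 and 4.60 with IL-12TD, without overlap, a rise of 1.76 ± 0.28 (adjusted p = 1.68e-05). Snora44 rose from 7.81, 7.06, 7.35 and 6.86 to 8.69, 9.33, 9.14 and 8.80, by 1.72 ± 0.44 (adjusted p = 0.00291). Snora73b rose by 1.32 ± 0.41 (adjusted p = 0.0115), a call lost without the fourth Mock array (adjusted p = 0.0515).

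The 3 members that fell at day 3 are C/D RNAs held by genes of the translation machinery. Snord16a, in Rpl4, was at 7.21, 7.49, 7.44 and 7.28 in Mock and 5.85, 6.23, 5.65 and 6.14 with IL-12TD, a difference of -1.39 ± 0.38 (adjusted p = 0.00442). Snord95, in Rack1, differed by -1.30 ± 0.40 (adjusted p = 0.0114) and Snord42b, in Rpl23a, by -1.09 ± 0.27 (adjusted p = 0.00204). In each case the groups did not overlap. Snord82 and Snord53 rose by 1.23 ± 0.28 (adjusted p = 0.000795) and 0.80 ± 0.18 (adjusted p = 0.000748), and Scarna17, which fell at day 7, rose by 0.62 ± 0.17 (adjusted p = 0.0039). In all, 11 members were called at day 3 alone, 24 at day 7 alone and 6 on both days, 4 of them higher on both.

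**Figure D4:**
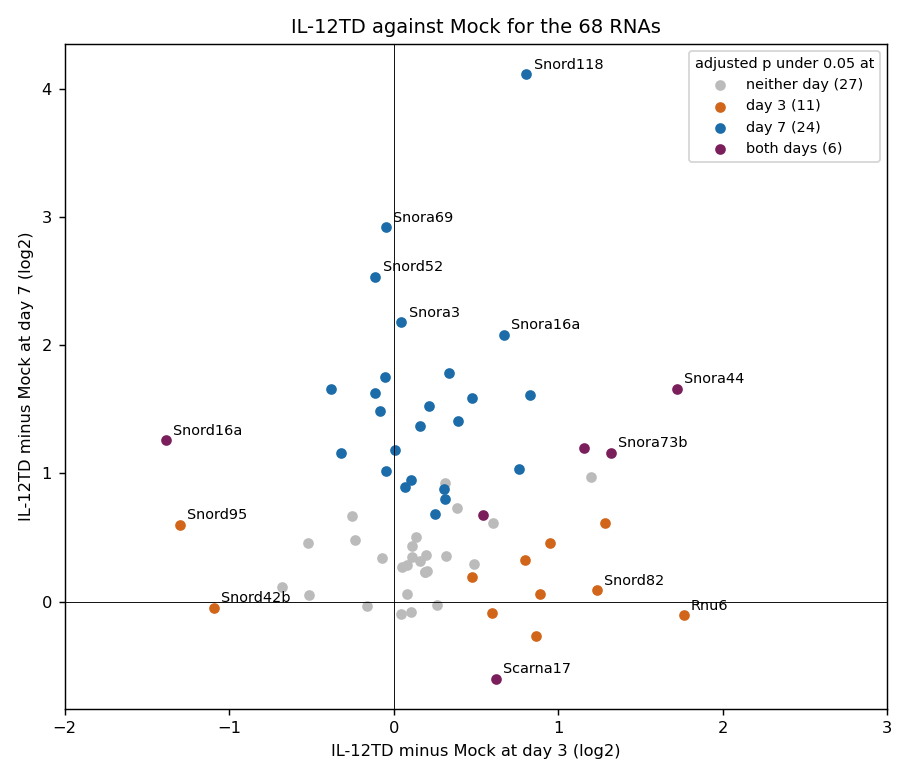
IL-12TD minus Mock (log2) for each of the 68 RNAs at day 3 (horizontal) and day 7 (vertical), coloured by the day on which limma's adjusted p was under 0.05. Snora69 and Snord52 lie high and near 0 at day 3, Snord118 lies highest, Rnu6 lies to the right and near 0 at day 7, and Snord16a has opposite signs on the 2 days.

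The difference between days was itself compared between IL-12TD and Mock tumours. Since the family was selected on differences between days, the counts and values are given as a description. The difference was larger with IL-12TD for 20 members and smaller for 5, against 24.1% and 18.4% of all genes. The median was 0.36 against -0.06. The largest were Snord118 by 3.31 ± 0.74 (adjusted p = 0.0012), Snora69 by 2.96 ± 0.47 (adjusted p = 5.66e-05), Snord52 by 2.65 ± 0.36 (adjusted p = 1.61e-05) and Snord16a by 2.64 ± 0.53 (adjusted p = 0.000519). Snora3 followed by 2.13 ± 0.35 (adjusted p = 9.51e-05). In the other direction were Rnu6 at -1.87 ± 0.40 (adjusted p = 0.000778), Scarna17 at -1.22 ± 0.24 (adjusted p = 0.000347) and Snord82 at -1.14 ± 0.39 (adjusted p = 0.0207). Snord82 and Snora75, both within Ncl, thus had values of opposite sign, Snora75 being larger with IL-12TD by 1.06 ± 0.36 (adjusted p = 0.021); the first call was lost in 1 and the second in 4 of 26 other settings.

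Partner genes and markers differed between these arms as well. Over all genes 17.3% were called higher and 25.9% lower with IL-12TD at day 3, and 12.9% and 8.83% at day 7. At day 3, 14 of 19 genes of snoRNA-protein particles were lower with IL-12TD and 1 higher, among them Dkc1 at -0.91 ± 0.19 (adjusted p = 0.000356), and at day 7 3 were higher and 3 lower, with Tgs1 higher by 1.00 ± 0.19 (adjusted p = 0.000335). Of the 24 polymerase I and nucleolus genes, 0 were higher and 17 lower at day 3, and 2 higher and 2 lower at day 7, with Taf1d higher by 2.08 ± 0.34 (adjusted p = 4.19e-05). Pan-leukocyte markers were higher for 13 of 14 and lower for 0 on each day, with Ptprc higher by 2.59 ± 0.28 at day 7 (adjusted p = 5.88e-08). T cell markers were higher for 10 of 11 at day 3 and 9 at day 7, neutrophil markers for 9 and 1 of 11, and macrophage markers for 3 and 6 of 12. Melanocyte markers were lower for 8 of 12 at day 3 and 1 at day 7. Cell cycle genes were lower for 14 of 14 at day 3 and 12 at day 7. The part of these shifts in the differences of the RNAs was not tested.

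Setting Mock against untreated tumours asks what irradiation and un-transduced T cells did. In limma's fit 0 members and 0 of all genes passed at either day, a background of 0.0%; a second quantile normalization called 9 genes and array weights 6 at day 7, none of them members. At an unadjusted p under 0.05 there were 0 members at day 3 and 4 at day 7, against 329 and 2767 of all genes. The 95% interval of the difference lay within 1 log2 unit of 0 for 57 members at day 3 and 53 at day 7. For the rest, larger differences cannot be told from none: at day 7 the interval of Snora33 reached down to -2.13 and that of Malat1 up to 1.00, and at day 3 that of Snord118 reached up to 1.64. At day 7 the median difference was -0.32 for H/ACA RNAs, -0.08 for C/D RNAs, 0.35 for Malat1, Lncpint and Rmrp and 0.03 over all genes. The lowest H/ACA value was that of Snora69 at -1.14 ± 0.33 (adjusted p = 0.221). The difference between days was not called different between these arms for any of the 68 members or any gene, while 5 members and 1420 genes had an unadjusted p under 0.05.

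The background shares depend on scaling. With a second quantile normalization, genes called higher and lower between the days in untreated tumours numbered 2484 and 2894 in place of 2250 and 4820, and for IL-12TD against Mock at day 7 2289 and 2574 in place of 2573 and 1760; the members' calls were then 59 higher and 0 lower, and 21 higher and 1 lower. Centring each array on its median changed the split between days with IL-12TD from 4030 and 4300 to 3369 and 5764 genes, with 60 members higher and 1 lower. Near-identical copies, such as those of U6 and of Snora73 and Snord15, can share probes, so their levels are uncertain as to copy. The design text calls the replicates biological but does not say whether each was a separate mouse, and p-values measure the spread between these samples.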

How the data were processed

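Total RNA of 24 tumour suspensions was labelled as sense DNA by an Affymetrix protocol, per the labels' protocols, and hybridised to 24 arrays. The deposited values are log2 intensities. Per the submitters' processing notes the authors used RMA to make them. The software, and which arrays entered a normalization jointly, are not given in the sources used here. The table held 35556 probesets, of which 21789 list 1 gene, 1621 several and 12146 none in the platform annotation; 21698 of the single-gene symbols matched RefSeq and 91 were kept as annotated. The brightest probeset per gene gave 19938 genes, with no identical arrays, and values ran from 1.009 to 14.367; the number of arrays limits the precision.

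A group-means model over all 24 arrays was fitted with limma 3.58.1 in R 4.3.3 (lmFit, eBayes), with Benjamini-Hochberg adjustment over all 19938 genes; an adjusted p under 0.05 counts as called, and ± after a difference is the model's SE. On simulated data for the Mock day difference with 19938 genes, 96% of 50 genes raised by 1 and 90% of 50 lowered by 1 were recovered, and 5.85% of all calls were false. The simulated noise was independent between arrays and few genes were shifted. In the real Mock day difference 10152 genes were called, so these rates may not carry over. The naming rule gave every array's value for the largest and smallest day differences of each snoRNA class, the host, Scarna and nuclear RNAs and the strongest members of each treatment comparison; other members are counted, and lists name up to 2 genes each way with the smallest adjusted p. Members and lists were chosen with earlier results of these data known. Alternatives were a second quantile normalization, centring, a dim filter, a trended robust prior, array weights, compared groups only, a replicate block, other probeset rules and leaving out each array; leaving out the day 7 arrays numbered 1 was chosen after seeing the data.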

Additional observations from a re-analysis of the deposited data

Results flagged for a closer look

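In 246 groups of 4 arrays, 9 had 1 array whose gap to the nearest other, divided by the group's range, was above Dixon's 95% critical value; chance gives about 1 in 20. In Mock tumours these were Rnu3a at day 3 (0.84, replicate 1 at 6.10 against 5.27 to 5.40), Snora3 at day 3 (0.865, replicate 1 at 6.55 against 5.57 to 5.70), Snora44 at day 7 (0.858, replicate 1 at 8.29 against 10.84 to 11.26) and Snord14e at day 7 (0.851, replicate 4 at 8.96 against 9.63 to 9.75). In IL-12TD tumours they were Snhg5 at day 3 (0.842, replicate 1 at 4.60 against 5.09 to 5.18), Snord53 at day 3 (0.868, replicate 1 at 7.90 against 8.29 to 8.35) and Snora3 at day 7 (0.895, replicate 1 at 8.98 against 10.14 to 10.28). In untreated tumours at day 7 they were Snora62 (0.84, replicate 1 at 6.34 against 6.81 to 6.90) and Snord52 (0.928, replicate 1 at 4.69 against 3.73 to 3.80).

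Over all genes, the difference between days was called larger with IL-12TD than in Mock tumours for 24.1% and smaller for 18.4%. Among the 40 members named by rule, it differed between these arms (limma, adjusted p under 0.05) for 13. It was larger with IL-12TD for Snord118 by 3.306, Snora69 by 2.964, Snord52 by 2.645, Snord16a by 2.644, Snora3 by 2.129, Snord95 by 1.895, Snora2b by 1.474, Snora16a by 1.409, Snora70 by 1.17 and Snord42b by 1.045. The call was lost for Snora16a in 11 of 26 other settings, falling to 0.927 after a second quantile normalization, and for Snord42b in 7 of 26. It was smaller for Rnu6 (-1.868), Scarna17 (-1.223) and Snord82 (-1.144). Some of these members were named for leading this comparison, and the family was selected on differences between days.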

How the results depend on the processing

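Between days, the members called numbered 54 to 62 in untreated, 54 to 60 in Mock and 57 to 65 in IL-12TD tumours over the other settings, and 57 to 61, 55 to 59 and 61 to 64 when 1 array was left out. Without dim genes the median difference was 1.662 in Mock and 2.432 in IL-12TD tumours. A member could pass that filter through 1 group where it was high, so larger medians follow in part from it. In IL-12TD tumours the median ran from 2.158 to 2.391 when 1 array was left out, and was 2.391 without the 3 day 7 arrays numbered 1. IL-12TD against Mock at day 3 gave 27 called members when only the compared groups were fitted, in place of 17, and 12 to 20 when 1 array was left out. Over all genes the compared-groups fit called 8286, in place of 8610. At day 7 the count ran from 22 to 42 (24 to 33 when 1 array was left out) and for the difference between days from 20 to 31 (21 to 26). Of the 17, 30 and 25 members called in these 3 comparisons, 11, 19 and 16 were called in every setting tried. Only values near 0 changed sign: Snord52 between Mock days was -0.108 after a second quantile normalization, -0.049 without the 3 arrays and -0.049 to 0.23 when 1 array was left out. Snord61 there was -0.07 after a second quantile normalization, -0.001 after centring, -0.068 with array weights, -0.081 without the 3 arrays and -0.081 to 0.16 when 1 array was left out. The cause was not tested.

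Same-numbered replicates did not deviate together in every pair (correlations from -0.212 to 0.524), so the samples were not treated as paired, although at day 7 the arrays numbered 1 correlated at 0.168 to 0.524 and those numbered 2 at 0.145 to 0.279. With the replicate number as a block, 58, 58 and 62 members were called higher and 0, 0 and 1 lower between days in untreated, Mock and IL-12TD tumours, 17 and 31 for IL-12TD against Mock at day 3 and day 7, 26 for the difference between days and 0 for Mock against no treatment. Of 3633 comparisons for 192 single results, 3425 kept their direction and side of the threshold, 181 lost a call, 18 gained one and 9 changed sign. Signal over background limits the 9 members removed by the dim filter.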

Other observations

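Further probesets list a small RNA together with another gene and were left out above, 62 in 19 sets. Values are log2 differences of day 7 from day 3, as the median over a set's probesets. The probeset of Snora34 and Mir1291 differed by 2.49 in untreated, 1.59 in Mock and 3.82 in IL-12TD tumours, and that of Snora28 and Eif5 by 1.17, 0.75 and 3.06. The set of 7 probesets of Rnu2-10, the U2 RNA of the spliceosome, and Rdm1 differed by 1.42, 0.62 and 3.83. The set of 9 of the U1 copies Rnu1b1, Rnu1b2 and Rnu1b6 differed by 1.19, 1.08 and 1.06. The set of 4 of the U3 copies Rnu3b1 to Rnu3b4 differed by 2.11, 1.59 and 0.89. The set of 24 of the imprinted Snord116 cluster differed by 2.26, 0.92 and 0.25. Whether these signals come from the small RNA or from the gene listed with it was not tested.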
